A study of Mus musculus with 9 samples.

Results

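The homeostatic microglia genes are 9 transcripts that resting microglia of the mouse brain carry: Cx3cr1, P2ry12, Tmem119, Csf1r, Gpr34, Siglech, Selplg, Fcrls and Olfml3. They were taken by symbol, whatever their values, from a table of 33299 RefSeq transcripts that stands for 23798 gene names, and each of the 9 genes had exactly 1 transcript in it. The libraries came from mouse brain and fell into 3 groups of 3 samples: TG mice given NM-101, TG mice given placebo, and wild-type (WT) mice given placebo. The labels call all 9 samples oligodendrocytes, name the genotype only as TG or WT and the treatment only as NM-101 or placebo, and say that RNA was isolated with a kit for fixed, paraffin-embedded tissue and sequenced as QuantSeq libraries, which read transcripts from the 3' end. The sources used here do not give the transgene and its promoter, the age of the mice, the brain region, the dose or whether each sample was a separate animal. The p-values below therefore rest on sample-to-sample spread that may be technical only.

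Microglia are the resident macrophages of the brain. At rest they survey the tissue through receptors for signals released by neurons and other cells, and they depend on signalling through Csf1r for survival and on TGF-beta for their identity. The genes described here mark that resting state in mouse, and they are commonly lower in microglia that respond to injury, plaques or dying myelin. In bulk RNA a lower value can come from fewer microglia or from less RNA per microglial cell, and these cannot be told apart.

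The columns of the table differ in unit. WT columns are whole-number read counts per transcript, with library totals from 10612290 to 14041951. The 6 TG columns hold log2 values, read here as log2(FPKM + 1), fragments per kilobase of transcript, scaled to library size. That reading comes from the values: over 18117 transcripts the TG values on a linear scale rose with WT CPM (counts scaled to equal library totals) with a slope of 1.01 and fell with transcript length with a slope of -0.87, both on log2 scales. Steps in the low TG values put the depth of the TG libraries between 9130000 and 12840000 reads. The median level of nuclear-retained RNAs was 4.00, 3.47 and 3.20 in the NM-101 libraries and 4.02, 6.17 and 6.06 in the TG placebo libraries, so that TG placebo replicates 2 and 3 stood apart from the other 4 TG libraries. The summed level of choroid plexus and ependymal genes was 76.2, 1070 and 88.6 FPKM in the NM-101 libraries and 4640, 12.2 and 17.4 FPKM in the TG placebo libraries, highest in TG placebo replicate 1.

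Microglial transcripts were present in every library although the label is oligodendrocyte. The median level of the 9 genes lay between 3.41 and 4.05 on the log2(FPKM + 1) scale over the 6 TG libraries, below the medians of 12 myelin and oligodendrocyte genes (4.50 to 5.84) and 12 neuronal genes (7.57 to 7.85). The libraries therefore hold RNA of several brain cell types. Markers of other myeloid cells were low. Of 12 genes of monocytes and neutrophils, 0 reached the level needed for testing and 3 (Ly6c2, Camp and Mmp8) were listed at 0 in all 6 TG libraries. The summed level of 12 genes of border-associated macrophages, which line the vessels and meninges, was 5.67 to 7.88 FPKM under NM-101 and 5.60 to 7.35 FPKM under placebo, against 120 to 147 and 98.7 to 118 FPKM for the 9 homeostatic genes.

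Coordinates are given in the genome build GRCm38.p6. Tmem119 (chromosome 5, 113793729 to 113800396) and Selplg (chromosome 5, 113817798 to 113832528) are neighbours on the minus strand, 17401 bases apart with only 2 predicted loci between them. P2ry12 (59216271 to 59262985), Fcrls (87250736 to 87263765) and Olfml3 (103735394 to 103738001) share chromosome 3 but are far from each other, all on the minus strand. Cx3cr1 lies on chromosome 9 from 120048683 to 120068296, Siglech on chromosome 7 from 55768154 to 55779448, and Gpr34 on chromosome X from 13622650 to 13640859. P2ry12 and Gpr34 lie within the spans of Med12l and Cask, each on the opposite strand, but in GENCODE M21 they share 0 exon bases with them.

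Promoter sequences are shown for the 3 genes whose values moved most closely together across the TG libraries, P2ry12, Olfml3 and Fcrls, with correlations given further on. Each run is the 250 bases upstream of the RefSeq start in GRCm38.p6, on the gene's own strand, from chr3:59262986-59263235 for P2ry12, chr3:103738002-103738251 for Olfml3 and chr3:87263525-87263774 for Fcrls. The Fcrls start in that table lies inside the gene's annotated span, so most of its window is also within the gene. Capitals mark AGGAAG on either strand, which holds the core that proteins of the Ets family bind, among them PU.1 (Spi1), a master regulator of microglia.
P2ry12: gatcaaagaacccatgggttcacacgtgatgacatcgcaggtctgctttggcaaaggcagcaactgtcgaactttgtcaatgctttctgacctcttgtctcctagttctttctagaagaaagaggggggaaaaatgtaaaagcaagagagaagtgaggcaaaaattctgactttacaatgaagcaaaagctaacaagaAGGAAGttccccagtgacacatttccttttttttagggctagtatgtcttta
Olfml3: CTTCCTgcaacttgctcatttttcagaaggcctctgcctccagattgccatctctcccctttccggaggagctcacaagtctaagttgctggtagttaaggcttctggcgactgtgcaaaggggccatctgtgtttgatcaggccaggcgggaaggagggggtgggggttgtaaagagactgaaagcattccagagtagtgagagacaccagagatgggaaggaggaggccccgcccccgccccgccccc
Fcrls: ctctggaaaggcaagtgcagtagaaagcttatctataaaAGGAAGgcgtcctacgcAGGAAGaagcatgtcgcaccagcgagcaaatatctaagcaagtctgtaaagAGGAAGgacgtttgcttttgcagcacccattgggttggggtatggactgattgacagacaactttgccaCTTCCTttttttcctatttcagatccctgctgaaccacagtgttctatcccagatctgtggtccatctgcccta
RefSeq promoters were matched for 5 of the 9 genes. AGGAAG was found upstream of 3 of these 5, at 52 bases before the start in P2ry12, at 250 in Olfml3 and at 4 places in Fcrls (211, 194, 143 and 74 bases before the start). The upstream windows of Cx3cr1 and Siglech did not hold these letters. Over 32851 mouse promoters of the same length 29.5% held AGGAAG on either strand. The longer GAGGAAG, which contains it, was found in Fcrls alone of the 5, and in 10.6% of all promoters. These matches describe the letters in the windows and are not measured binding sites.

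TG NM-101 was set against TG placebo, which differ in treatment at the same genotype. All 9 homeostatic genes had a higher mean under NM-101 than under placebo, by 0.15 to 0.67 on the log2(FPKM + 1) scale with a median of 0.28. None of them passed the test: 0 of 9 had an adjusted p under 0.05 (limma, Benjamini-Hochberg over 12699 genes), while 0.134% of all genes tested passed in either direction, 0.102% higher and 0.0315% lower. With p unadjusted, 4 of 9 were under 0.05 and higher and 0 were lower, against a background of 10.7% higher and 4.17% lower over all genes (14.8% in either direction). The median difference over all genes tested was 0.03, with 55.5% above 0. In 2 of the 9 genes, Gpr34 and Csf1r, each NM-101 library lay above every placebo library, against a background of 13.6% for this pattern, and in 0 of 9 wholly below, against 5.98%. The summed level of the 9 genes was 147, 120 and 135 FPKM in the NM-101 libraries and 99.8, 118 and 98.7 FPKM in the placebo libraries, so the lowest NM-101 sum lay close to the highest placebo sum.

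**Figure D1:**
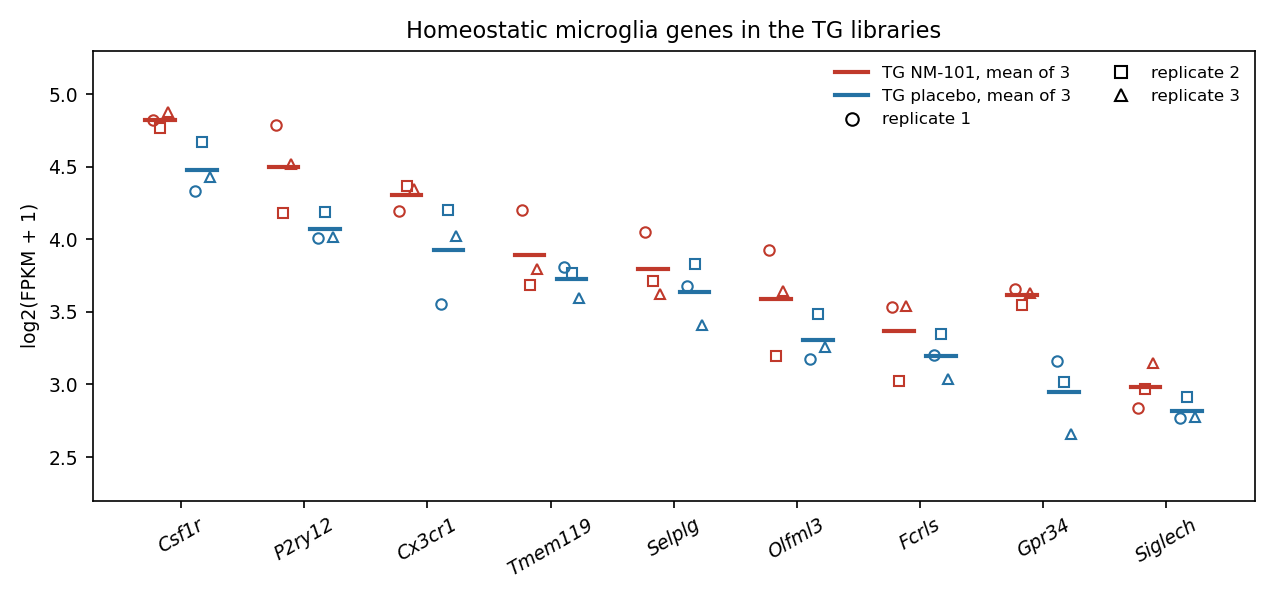
Level of each homeostatic microglia gene, log2(FPKM + 1), in the 3 TG NM-101 libraries (red, left of each pair) and the 3 TG placebo libraries (blue), with bars at the group means and a symbol for each replicate number. The NM-101 mean is the higher for each gene, and the points of both groups overlap for all but Csf1r and Gpr34.

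Among the receptors, Gpr34 stood furthest apart. Gpr34 is a G protein-coupled receptor for lysophosphatidylserine, a lipid that dying cells expose. Its level was 3.66, 3.55 and 3.63 in the NM-101 libraries and 3.16, 3.02 and 2.66 in the placebo libraries, so the groups did not overlap. The means were 3.61 ± 0.06 under NM-101 and 2.95 ± 0.26 under placebo (SD, n = 3 each). The log2 difference was 0.67 (SE 0.14), a 1.66-fold ratio of mean FPKM, with a limma adjusted p of 0.105. Without TG placebo replicate 3, the lowest library, the difference was 0.52 with a limma adjusted p of 0.255. Gpr34 passed without TG placebo replicate 1, at a difference of 0.77 and a limma adjusted p of 0.00485, in a fit where 2269 genes passed in all. That fit sets NM-101 against the 2 placebo libraries high in nuclear-retained RNAs, and their part in the result was not tested.

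Csf1r, the receptor tyrosine kinase for the growth factors CSF1 and IL-34, was the highest of the 9 genes per length in the TG libraries. The gene lies on chromosome 18 from 61105572 to 61131139, on the plus strand. It stood at 4.83, 4.77 and 4.88 under NM-101 and at 4.34, 4.67 and 4.43 under placebo, again without overlap, although the gap between the nearest libraries was small. The log2 difference was 0.35 (SE 0.11; 4.82 ± 0.06 under NM-101 and 4.48 ± 0.17 under placebo, SD, n = 3 each) with a limma adjusted p of 0.218.

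P2ry12, the ADP receptor that steers microglial processes towards injury, had values of 4.79, 4.18 and 4.52 under NM-101 and 4.01, 4.19 and 4.01 under placebo. NM-101 replicates 1 and 3 lay above all placebo libraries and replicate 2 among them. The log2 difference was 0.43 (SE 0.15) with a limma adjusted p of 0.260, and 0.28 without NM-101 replicate 1. Cx3cr1, the receptor for the neuronal chemokine fractalkine, stood at 4.20, 4.37 and 4.35 under NM-101 and at 3.56, 4.20 and 4.03 under placebo. Its difference of 0.38 (SE 0.16, limma adjusted p = 0.325) drew on the low TG placebo replicate 1, and without that library it was 0.19.

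The surface proteins and the secreted protein showed smaller differences relative to their spread. Tmem119, a transmembrane protein used as a marker that separates microglia from blood-derived macrophages, had 4.20, 3.69 and 3.79 under NM-101 and 3.81, 3.77 and 3.60 under placebo. Selplg, which encodes the selectin ligand PSGL-1, had 4.05, 3.71 and 3.63 under NM-101 and 3.68, 3.83 and 3.41 under placebo. In both genes only NM-101 replicate 1 lay above all placebo libraries. The log2 differences were 0.17 for Tmem119 and 0.15 for Selplg (SE 0.15 each), with limma adjusted p-values of 0.606 and 0.653. Without NM-101 replicate 1 they were 0.02 for Tmem119 and 0.03 for Selplg, and over the omission of each library they reached 0.275 and 0.249.

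Siglech, a sialic acid-binding lectin that signals through the adaptor Tyrobp, was the lowest of the 9 genes, at 2.84, 2.97 and 3.15 under NM-101 and 2.77, 2.91 and 2.78 under placebo. Fcrls, an Fc receptor-like gene of mouse microglia, had 3.54, 3.03 and 3.54 under NM-101 and 3.20, 3.35 and 3.04 under placebo. In Fcrls the NM-101 library at 3.03 was the lowest of all 6. Olfml3, which encodes a secreted olfactomedin-like protein, had 3.93, 3.20 and 3.65 under NM-101 and 3.18, 3.49 and 3.26 under placebo, and its NM-101 replicate 2 also lay among the placebo libraries. The log2 differences were 0.17 (SE 0.13) for Siglech, 0.17 (SE 0.16) for Fcrls and 0.28 (SE 0.18) for Olfml3, with limma adjusted p-values of 0.568, 0.641 and 0.490. Without NM-101 replicate 3 Siglech differed by 0.08. Fcrls ranged from 0.09 to 0.34 and Olfml3 from 0.11 to 0.48 when 1 library was left out, both highest without NM-101 replicate 2.

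**Figure D2:**
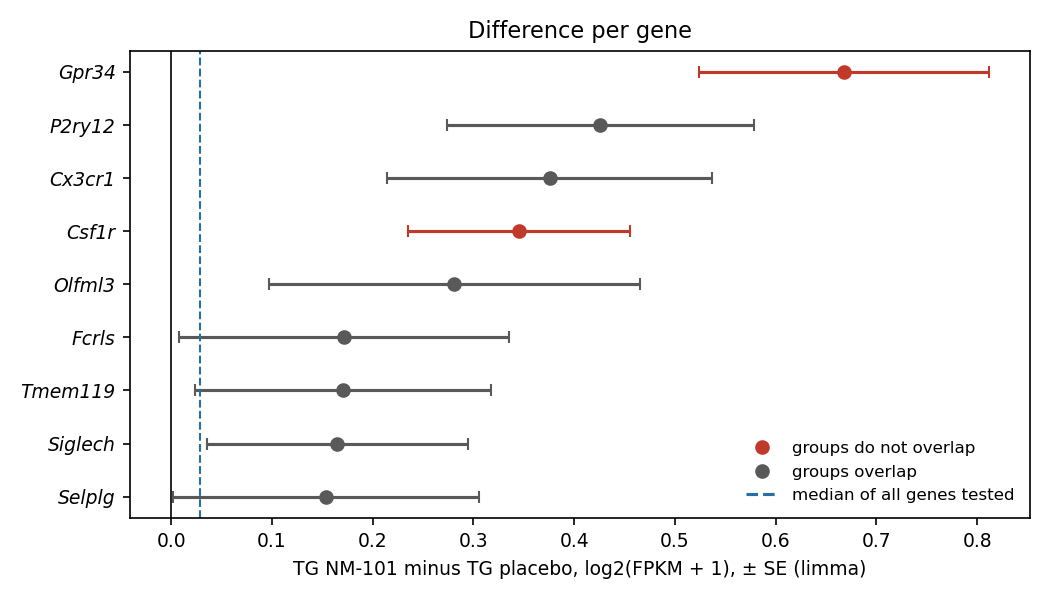
Difference between TG NM-101 and TG placebo on the log2(FPKM + 1) scale for each gene, with its standard error from limma (3 libraries a group); red marks genes whose groups do not overlap and the dashed line the median of all genes tested (0.03). Each difference lies above 0, from 0.15 for Selplg to 0.67 for Gpr34.

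In order of their mean level over the 6 TG libraries, the genes ran Csf1r (4.65), P2ry12 (4.28), Cx3cr1 (4.11), Tmem119 (3.81), Selplg (3.72), Olfml3 (3.45), Fcrls and Gpr34 (3.28 each) and Siglech (2.90), all per transcript length. Within the placebo group each neighbouring pair from P2ry12 to Selplg differed by less than the larger SD of the pair, at 4.07 ± 0.10, 3.93 ± 0.33, 3.72 ± 0.11 and 3.64 ± 0.21 (SD, n = 3). Gpr34 stood at 3.61 ± 0.06 under NM-101, close to Olfml3 at 3.59 ± 0.37, and at 2.95 ± 0.26 under placebo, close to Siglech at 2.82 ± 0.08 (SD, n = 3).

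Most pairs of the 9 genes were positively correlated from library to library, though not all. After the mean of each group was removed, the correlation across the 6 TG libraries was 0.99 between P2ry12 and Olfml3. It was 0.88 between Fcrls and Olfml3 and 0.88 between P2ry12 and Fcrls. The chromosomal neighbours Tmem119 and Selplg had 0.84, and P2ry12 and Tmem119, on different chromosomes, had 0.85. The correlation was -0.52 between Cx3cr1 and Gpr34, -0.52 between Tmem119 and Siglech and -0.40 between Cx3cr1 and Tmem119. Over all 36 pairs the median was 0.48, with 28 above 0. With the group means left in, the median was 0.60, with 34 of 36 above 0. These are descriptions over 6 libraries that share depth and scaling. NM-101 replicate 2 was the lowest NM-101 library for 6 of the 9 genes and TG placebo replicate 2 the highest placebo library for 7 of 9. For P2ry12, Olfml3 and Fcrls NM-101 replicate 2 was the only NM-101 library that did not lie above every placebo library.

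**Figure D3:**
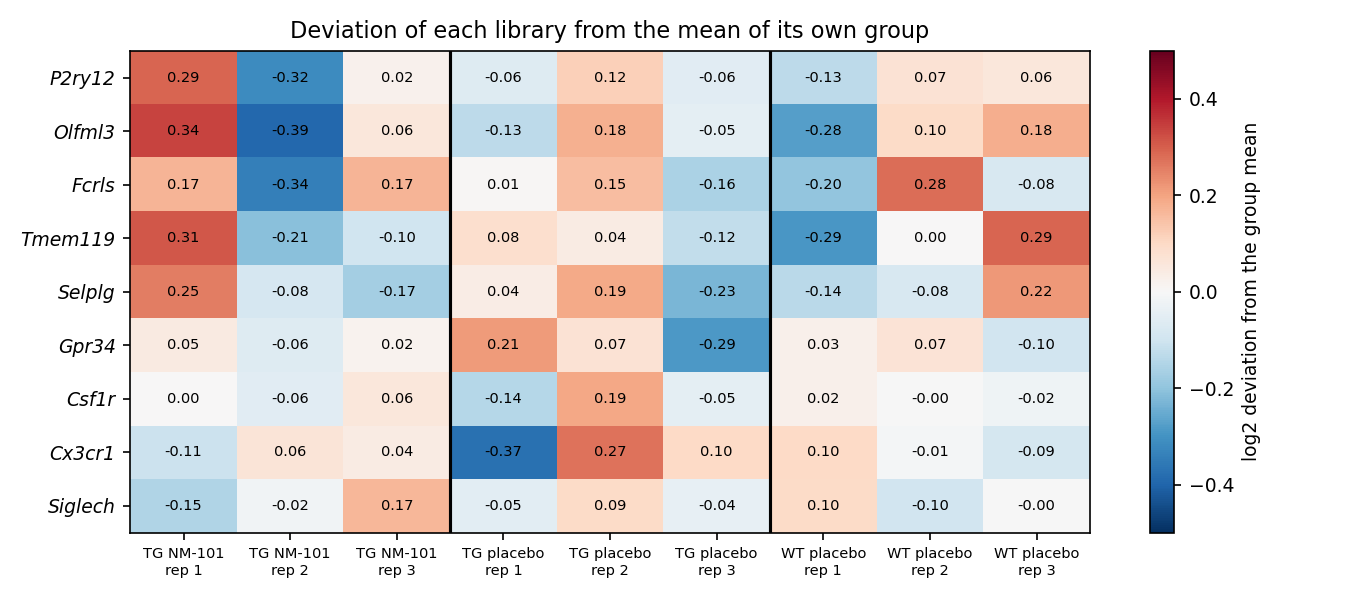
Log2 deviation of each library from the mean of its own group, for the 9 genes (rows) in the 3 TG NM-101, 3 TG placebo and 3 WT placebo libraries (columns; TG from log2(FPKM + 1), WT from log2 CPM); red is above and blue below the group mean. P2ry12, Olfml3, Fcrls and Tmem119 are low together in NM-101 replicate 2 (-0.32, -0.39, -0.34 and -0.21) and in WT replicate 1 (-0.13, -0.28, -0.20 and -0.29). Selplg lies at -0.085 and -0.136 in these libraries. Gpr34, Csf1r, Cx3cr1 and Siglech lie at -0.064, -0.056, 0.064 and -0.017 in NM-101 replicate 2. In WT replicate 1 they lie at 0.026, 0.023, 0.098 and 0.096.

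The WT libraries gave the same genes as counts. Csf1r had 772, 1002 and 830 counts, which is 71.5 ± 1.14 CPM (SD, n = 3), and Siglech had 196, 228 and 204 counts, 17.3 ± 1.12 CPM. Over all 9 genes the counts ran from 173 to 1002. Together the 9 genes took 298.6, 315.5 and 315.9 CPM in the 3 WT libraries.

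The spread over the 3 WT libraries is given beside the part that counting alone would give, as a description, since separate samples usually vary beyond counting. For Csf1r, Gpr34 and Siglech the coefficient of variation (CV) over the 3 libraries was 1.59%, 5.99% and 6.44%, below or near the 3.42%, 6.16% and 6.96% that counting alone gives. Tmem119 had 199, 323 and 331 counts (18.8, 23.0 and 28.1 CPM), a CV of 20.1% where counting gives 5.97%. Fcrls had 195, 359 and 235 counts with a CV of 17.7%, Olfml3 173, 296 and 264 counts with 16.1%, and Selplg 242, 333 and 343 counts with 13.6%, where counting gives 5.75% to 6.44%. Cx3cr1 (57.4 ± 3.73 CPM) and P2ry12 (52.1 ± 3.97 CPM) lay between, at 6.50% and 7.63% (SD, n = 3). The median CV of 4952 genes with a like CPM was 8.77%. WT replicate 1 was the lowest library for P2ry12, Tmem119, Selplg, Fcrls and Olfml3, and not for the other 4 genes. That library was also the highest in choroid plexus RNA, with Ttr at 37915 counts against 39 and 234 in WT replicates 2 and 3. The part of this makeup in the WT spread was not tested.

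**Figure D4:**
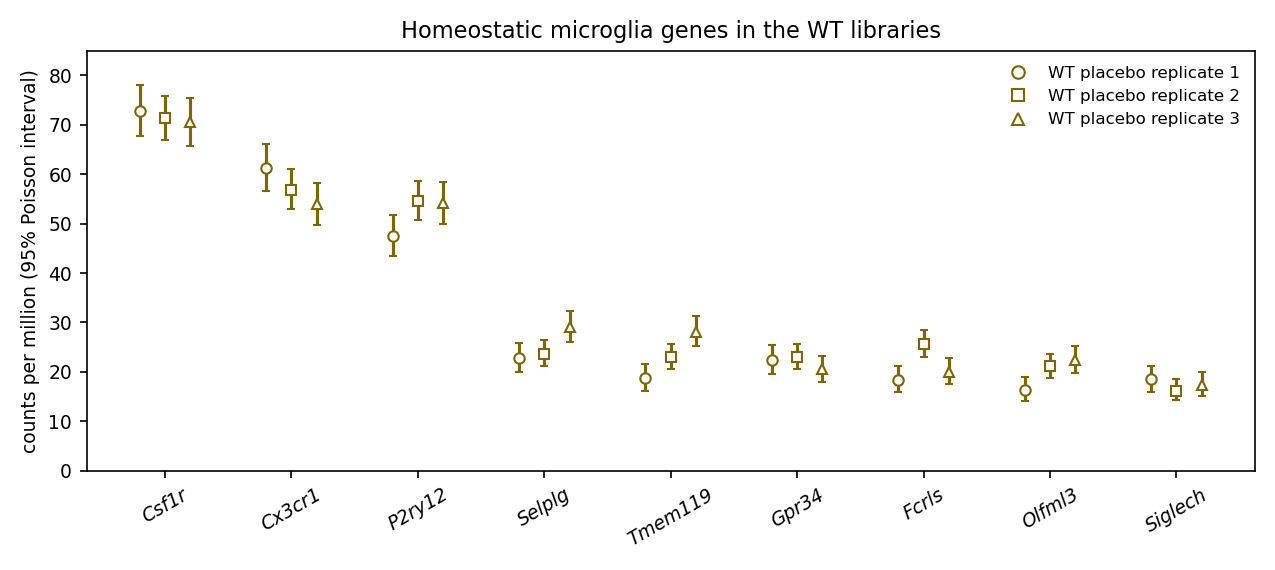
CPM of the 9 genes in the 3 WT placebo libraries, each with its exact 95% Poisson interval, which covers counting error only. The 3 intervals of Csf1r lie on each other, while those of Tmem119 in replicates 1 (16.2 to 21.5) and 3 (25.2 to 31.3) are apart.

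TG and WT levels could be set side by side only after WT counts had been rescaled to log2(RPKM + 1), with library totals and GENCODE M21 transcript lengths. The columns were normalized separately, so these values are descriptions without a test. A wrong length would shift a gene's whole TG and WT difference, and the 2 cannot be told apart. Library makeup was uneven too. TG placebo replicates 2 and 3 were high in nuclear-retained RNAs, and TG placebo replicate 1 and WT replicate 1 in choroid plexus RNA. The part of makeup in these differences was not tested. Olfml3 has no WT value on this scale because the GENCODE transcript, at 5465 bases, is longer than the RefSeq gene with its introns, at 2608 bases. For TG placebo against WT placebo the other 8 genes had a median log2 difference of -0.19, with 2 of 8 above 0, where the median of 12226 genes was 0.045. In 3 of the 8, Gpr34, P2ry12 and Siglech, each TG placebo library lay below every WT library, and in 1, Csf1r, above, against backgrounds of 16.1% lower and 20.4% higher. Gpr34 stood at 3.16, 3.02 and 2.66 in TG placebo and at 3.67, 3.71 and 3.56 in WT, a difference of -0.70. P2ry12 stood at 4.01, 4.19 and 4.01 in TG placebo and at 4.47, 4.66 and 4.65 in WT, a difference of -0.52. In Csf1r the order was the opposite, at 4.34, 4.67 and 4.43 in TG placebo and 4.31, 4.28 and 4.26 in WT, a difference of 0.20.

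For TG NM-101 against WT placebo, which shares the WT libraries with the last comparison and the NM-101 libraries with the first, the median of the 8 genes was -0.015 and 4 of 8 lay above 0. The sign of that median turned without NM-101 replicate 2 (0.119), WT replicate 2 (0.064) or WT replicate 3 (0.002). Gpr34 stood at 3.66, 3.55 and 3.63 under NM-101 and at 3.67, 3.71 and 3.56 in WT, so the groups overlapped, at a difference of -0.04. P2ry12 overlapped too, at -0.10. In Csf1r and Cx3cr1 each NM-101 library lay above every WT library, by 0.54 and 0.28 on average, against a background of 23.0% for this pattern, and 0 of 8 genes lay wholly below, against 13.3%. On this scale the median absolute difference of all genes was 0.21 for TG placebo against WT and 0.17 for TG NM-101 against WT, and 0.15 for TG NM-101 against TG placebo, so differences across the 2 normalizations were the wider.

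Other genes of the microglial programme were set beside the 9. Trem2, Sall1, Tgfbr1, Tyrobp and Csf1 recur across these lists, so the list medians are not independent. Of 20 further homeostatic genes 19 were tested, with 16 above 0, a median log2 difference of 0.25 for NM-101 minus placebo and 0 past the threshold. P2ry13, an ADP receptor related to P2ry12, stood at 2.71, 2.61 and 2.67 under NM-101 and 2.02, 2.30 and 2.01 under placebo. Its groups did not overlap, at a log2 difference of 0.56 (limma adjusted p = 0.134). The cystatin gene Cst3, which astrocytes also express, differed by 0.37 (limma adjusted p = 0.168). Without TG placebo replicate 1 P2ry13 and Cst3 passed, at 0.51 and 0.455 (limma adjusted p = 0.0285 and 0.0156). In that fit 2269 of all 12699 genes tested passed.

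The ligands of Cx3cr1 and Csf1r had lower means under NM-101, and 0 of the 3 passed. Cx3cl1, the fractalkine of neurons, stood at 6.85 ± 0.06 under NM-101 and 7.00 ± 0.23 under placebo (SD, n = 3 each). Il34 stood at 4.16 ± 0.16 and Csf1 at 2.50 ± 0.20 under NM-101, against 4.27 ± 0.06 and 2.79 ± 0.03 under placebo (SD, n = 3 each). The Csf1 groups did not overlap, with a log2 difference of -0.29 and a limma adjusted p of 0.371 (-0.185 without NM-101 replicate 2). The selectin genes Selp and Sele were listed at 0 in all 6 TG libraries. The adaptor Tyrobp, which carries the signal of Siglech and Trem2, was higher in each NM-101 library (5.48, 5.74 and 5.38 under NM-101; 5.12, 5.26 and 5.16 under placebo), at 0.35 with a limma adjusted p of 0.219. The TGF-beta receptor Tgfbr1 differed by 0.28 (limma adjusted p = 0.339). Of the 16 genes in this list 12 were tested, 8 lay above 0 with a median of 0.09, and 0 passed.

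Of 12 microglial transcription factors 11 were tested, 10 lay above 0 with a median of 0.22, and 0 passed. Spi1, which encodes PU.1, stood at 2.57, 2.46 and 2.42 under NM-101 and 2.11, 2.24 and 2.16 under placebo, a log2 difference of 0.32 with a limma adjusted p of 0.301. Sall1, a zinc-finger factor that holds microglial identity, differed by 0.32 and the basic helix-loop-helix factor Bhlhe41 by 0.33, with limma adjusted p-values of 0.337 and 0.235. Each NM-101 library lay above every placebo library for 5 of the 11, these 3 among them, against the 13.6% of all genes given above. In the WT libraries Spi1 had 42, 67 and 54 counts, Bhlhe41 had 589, 869 and 703, and Mef2a had 2424, 2579 and 2546. The part of other brain cells in this list was not tested.

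Pan-myeloid genes had a median of 0.26 (14 of 17 tested above 0, 0 passing). Complement C1qb differed by 0.37, C1qa by 0.30 and the tetraspanin Cd53 by 0.50, with limma adjusted p-values of 0.125, 0.181 and 0.142 and no overlap of the groups. All 3 passed without TG placebo replicate 1, at 0.405, 0.325 and 0.513 (limma adjusted p = 0.0130, 0.0330 and 0.0228). The background in that fit was 2269 of 12699 genes passing. Aif1, which encodes IBA1, had the opposite sign at -0.25 (limma adjusted p = 0.471). Genes of activated and disease-associated microglia had a median of 0.09, with 9 of 14 tested above 0 and 0 passing. Trem2, a lipid receptor, stood at 3.85, 3.89 and 3.60 under NM-101 and at 4.03, 3.90 and 3.67 under placebo. Spp1 (osteopontin) and Gpnmb differed by 0.35 and 0.36, with limma adjusted p-values of 0.315 and 0.340. Levels in this list ran from Cst7, Itgax and Clec7a, at or under 0.46 in each TG library, to the lipid carrier Apoe, at 11.22, 11.51 and 11.36 under NM-101 and 11.17, 11.26 and 11.21 under placebo. Of the border-associated macrophage genes 3 of 12 were tested, Colec12 (-0.16), Pf4 (0.21) and Stab1 (-0.04), with limma adjusted p-values from 0.684 to 0.931.

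**Figure D5:**
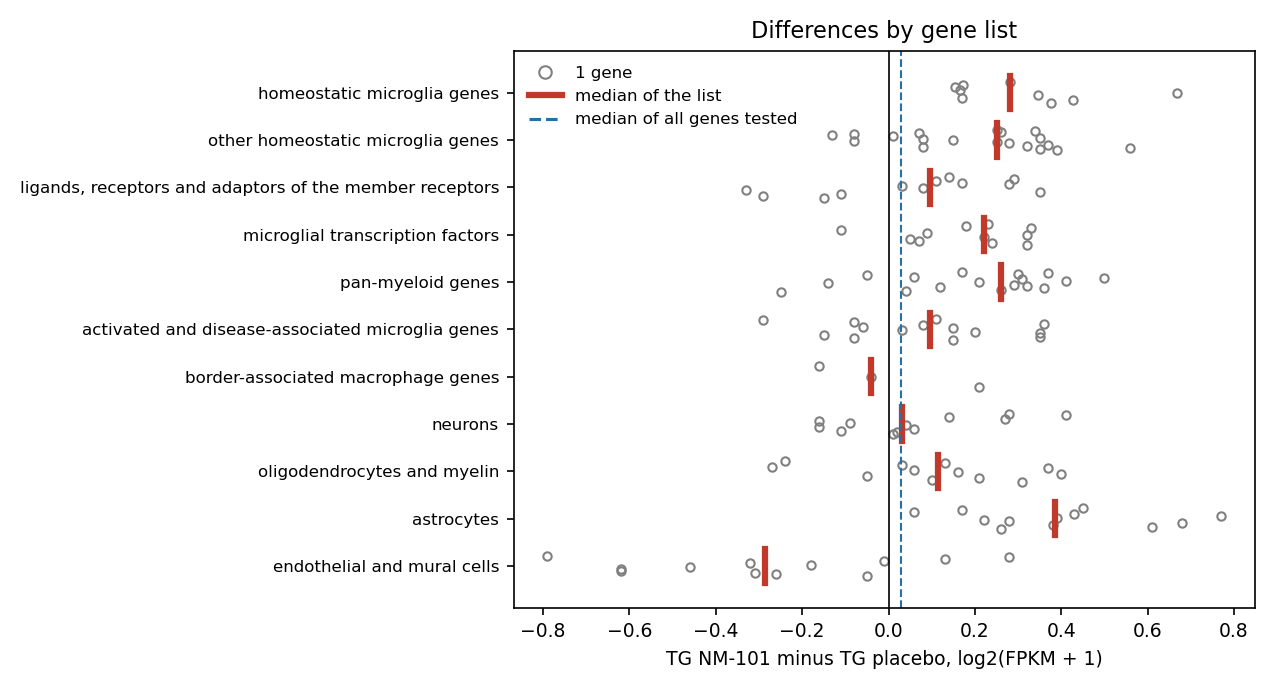
Difference between TG NM-101 and TG placebo on the log2(FPKM + 1) scale for each tested gene (circles) by gene list, without the lists of choroid plexus and ependymal genes, nuclear-retained RNAs and monocyte and neutrophil genes, with red bars at the list medians and a dashed line at the median of all genes tested (0.03). The medians are 0.28 for the homeostatic microglia genes, 0.25 for further homeostatic genes, 0.39 for astrocyte genes and -0.28 for endothelial and mural genes.

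Lists of other cell types were set beside these in the same comparison, and 0 genes passed in each of them except astrocytes. Astrocyte genes had a median log2 difference of 0.39 with 12 of 12 above 0, and Sox9 was the one gene of these lists to pass (0.77, limma adjusted p = 0.0425), a call that 11 of 13 other settings did not give (limma adjusted p up to 0.351). Slc1a2 and Cldn10 differed by 0.68 and 0.45, with limma adjusted p-values of 0.0561 and 0.0958. Endothelial and mural genes had a median of -0.28 with 2 of 12 above 0. The 3 with the smallest p-values were Igfbp7 (-0.79), Ly6a (-0.62) and Slco1a4 (-0.46), with limma adjusted p-values of 0.105, 0.126 and 0.188. Neuronal genes had a median of 0.03, where Map2 differed by 0.41, Celf4 by 0.28 and Syn1 by -0.16 (limma adjusted p = 0.126, 0.377 and 0.386). Myelin genes had a median of 0.11, with Opalin at -0.27 and Ermn at 0.37 (limma adjusted p = 0.653 and 0.767), which ranged from -0.551 to -0.112 and from 0.077 to 0.856 when 1 library was left out. Choroid plexus and ependymal genes had a median of 0.64, with Ccdc153 at 1.52, Tmem212 at 1.56 and Foxj1 at 0.71 (limma adjusted p = 0.346, 0.460 and 0.609). Without TG placebo replicate 1 these 3 were 2.22, 2.54 and 1.37, and all passed (limma adjusted p = 0.000178, 5.18e-05 and 0.00850). Foxj1 was 0.334 without TG placebo replicate 2. Nuclear-retained RNAs had a median of -1.02, with Neat1 at -1.07, Mirg at -0.97 and Meg3 at -1.69 (limma adjusted p = 0.212, 0.414 and 0.582). Without TG placebo replicate 1 these 3 were -1.34, -1.56 and -2.99, and all passed (limma adjusted p = 0.0163, 0.000618 and 0.000251). Without TG placebo replicate 3 Mirg was -0.53 and Meg3 -1.03. Omitting TG placebo replicate 1 also gave calls to Slc1a2 (0.69), Cldn10 (0.40), Igfbp7 (-0.77), Ly6a (-0.73), Slco1a4 (-0.58) and Map2 (0.32). Their limma adjusted p-values ran from 0.00369 to 0.0317. Each call named here without TG placebo replicate 1 stands beside 2269 of 12699 genes that passed in that fit. The part of cell makeup and of nuclear RNA in the homeostatic genes' differences was not tested.

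The 10413 genes with a mean of at least 2 were ranked by how closely they followed the mean of the 9 homeostatic genes over the 6 TG libraries. Predicted loci, Rik clones and transcripts without a symbol were then left out. The closest of the rest were Lratd1 (r = 0.998), Sik3 (0.992), Creg2 (0.989), Gpd2 (0.988) and Kank1 (0.980). The mean of the 9 genes was 4.00, 3.72 and 3.90 in the NM-101 libraries and 3.52, 3.71 and 3.47 in the placebo libraries. With 6 points, 37 of the 10413 genes had a correlation above 0.95, and none of the 5 named passed between the groups (limma adjusted p from 0.312 to 0.626).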

How the data were processed

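RNA from 9 mouse brain samples was analysed. The submitters' processing notes name Bowtie2 and mm10. The counting program and the normalization were not given in the sources used here. As deposited by the authors, the table holds counts per RefSeq transcript for the 3 WT samples and log2 values for the 6 TG samples. Symbols came from a RefSeq table of GRCm38.p6, which named 32390 transcripts. TG values were unlogged, added up per symbol, written as log2(value + 1) with a pseudocount of 1, and tested where the mean was at least 1, with limma 3.58.1 (variance trend, robust shrinkage) in R 4.3.3, at an adjusted p of 0.05. Fold changes on this scale understate the change of low genes, and values fall with length although the kit reads 3' ends, so levels per length are approximate. The fit was tested on simulated data. Depths of TG libraries came from steps in low values of transcripts, of which 86.4% to 88.4% lay within 0.2 of a whole read.

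WT counts were rescaled by library total and transcript length, without a test against TG. All 9 genes are always named. Of each other list, the 3 tested genes with the smallest p-values and any that passed are named. The 5 genes most alike are named too, leaving out predicted loci, Rik clones and transcripts without a symbol. Some genes that this rule selects are not reported here. Any other gene was picked with its values in view. The homeostatic genes and the lists were chosen with earlier results of these data known. Alternatives were another pseudocount, other filters, median-ratio scaling, single transcripts, the replicate block, no variance trend and leaving out each sample. Promoters are from RefSeq.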

Additional observations from a re-analysis of the deposited data

How the results depend on the processing

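Between NM-101 and placebo in TG mice, 0 of the 9 homeostatic genes passed in limma under 12 of 13 alternatives, the replicate block (0) among them. Without adjustment 4 of 9 were under 0.05 in the analysis as reported, and 2 to 5 of 9 under the alternatives. Leaving out 1 sample gave 0 to 1 gene passing with adjustment, the 1 being Gpr34 without TG placebo replicate 1 (0.77). The median difference of the 9 genes was 0.212 to 0.370 when 1 sample was left out and 0.254 to 0.304 under the other alternatives, and 9 of 9 genes stayed above 0 in each. For TG placebo against WT placebo the median was -0.279 to -0.126 when 1 sample was left out. For TG NM-101 against WT placebo it was -0.069 to 0.119 when 1 sample was left out, and it turned positive without NM-101 replicate 2 (0.119), WT replicate 2 (0.064) or WT replicate 3 (0.002); the cause was not tested. Sox9 passed under 2 of 13 alternatives. The alternatives were followed for 35 genes of the other lists, those with the smallest p-values or a pass. Without TG placebo replicate 1, 18 of these 35 passed that did not otherwise, with the same sign (limma adjusted p 5.18e-05 to 0.0330). The cause was not tested, and the remaining list genes were not counted in that setting. Signs turned among other named genes: Pf4 without NM-101 replicate 3 (-0.026; range leaving out 1 sample -0.026 to 0.454), Stab1 without TG placebo replicate 2 or 3 (0.024 each; range -0.164 to 0.024) and Syn1 with single transcripts (0.026). Over all genes 17 of 12699 passed; 0 to 7 passed under each other setting except a pseudocount of 0.1 (17) and the one without TG placebo replicate 1 (2269). Samples that share a replicate number did not deviate together (correlations 0.045, -0.027 and -0.018), and with the replicate block 3 genes passed. Counts of 173 to 1002 reads a library limit each WT value to the Poisson intervals given, and 3 samples a group limit every comparison.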
